A study of Mus musculus with 12 samples.

Results

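Iron handling in corneal endothelium was described through 10 genes, with *Tfrc* at their head, taken by their symbols from 15838 genes in the expression tables. All 10 had a row. The list had been chosen on the fold changes of *Tfrc* by genotype and sex in the authors' own fits. Those fits are the study's own comparisons and their values are not used here, so the genes are described by their level and by their sequence. RNA came from the corneal endothelium with its Descemet membrane, peeled from C57BL/6 mice at 10 weeks of age. There were 12 libraries in 4 groups of 3, namely male and female Slc4a11-/- mice (KO), which inherit a targeted deletion in *Slc4a11*, and male and female Slc4a11+/+ littermates (WT), all kept on standard chow. The sample records describe pooled membranes whereas the study's methods describe pairs from both corneas of a mouse, so it is not settled that each library was 1 mouse.

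Each gene has 1 value in the files used here, the authors' mean over the libraries of log2 CPM, a read count scaled to the size of its library. The values of the single libraries were not analysed here. The depth of each library and the spread between libraries are therefore unknown here, and no level carries an error. No comparison of KO with WT or of males with females was made, and the level of *Slc4a11*, a mean of 10.71 log2 CPM over both genotypes, does not check the deletion.

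A cell takes up iron mainly as transferrin bound to the transferrin receptor at its surface. In the endosome the iron is reduced and passed to the cytosol, where it is used, stored inside ferritin or exported through ferroportin. The balance is kept by 2 iron regulatory proteins, which bind a short RNA hairpin, the iron-responsive element (IRE), when iron is scarce. Binding near the start of an mRNA blocks its translation, and binding behind the coding sequence protects the *Tfrc* mRNA from decay. The corneal endothelium is a single layer of cells that pumps fluid out of the cornea.

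Matches to the form of this hairpin are shown first, since they divide the 10 genes into those with a match in an annotated transcript and those without. The annotated untranslated regions (UTRs) of every gene in the tables were searched on the sense strand for a C, a stem of 5 bases, the loop CAGTGN with its last base not G, and 5 bases that pair with the stem, G-U pairs allowed. Such an element was found in 4 of the 10 genes, *Fth1*, *Ftl1*, *Slc40a1* and *Tfrc*, and in 108 of all 12959 genes with an annotated UTR (0.833%). The pattern was written to match the IRE and the list holds genes of iron handling, so these shares are no test of the list. With only the longest transcript of each gene used, 2 of the 10 had an element, *Ftl1* and *Tfrc*, and 84 genes in all (0.648% of the same 12959). The longest transcripts of *Fth1*, *Slc40a1*, *Ncoa4* and *Slc39a14* have no annotated coding part and were not searched. Genes of this kind stay in both totals, so these shares are too low for the genes that were searched. *Fth1* encodes the ferritin heavy chain, *Ftl1* the ferritin light chain, *Slc40a1* the iron exporter ferroportin and *Tfrc* the transferrin receptor. Over all annotated transcripts *Fth1*, *Ftl1* and *Slc40a1* hold it in the 5′ UTR, where 18 of 12906 genes (0.139%) had a match, and *Tfrc* holds it in the 3′ UTR, where 90 of 12946 genes (0.695%) had one. The 7 elements are printed with 30 bases each from the GENCODE M21 transcripts (GRCm38), 5′ to 3′, with the loop in capitals.
Fth1 element 1: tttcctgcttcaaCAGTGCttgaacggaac
Ftl1 element 1: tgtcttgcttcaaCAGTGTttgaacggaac
Slc40a1 element 1: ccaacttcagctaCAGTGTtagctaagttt
Tfrc element 1: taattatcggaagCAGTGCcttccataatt
Tfrc element 2: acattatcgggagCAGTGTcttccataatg
Tfrc element 3: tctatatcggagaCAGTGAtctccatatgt
Tfrc element 4: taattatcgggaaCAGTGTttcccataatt

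The ferritin elements were nearly the same sequence. *Fth1* and *Ftl1* shared 27 of the 30 printed bases, whereas the *Slc40a1* element shared 13 of 30 with each of them. Every such count includes the C before the stem and the loop bases CAGTG, which the search itself required. Among the *Tfrc* elements, the first and the fourth shared 25 of 30 bases, as did the first and the second, and the third was the most distant, with 18 to 20 bases in common with the others. The loop ended in T in 4 elements, in C in 2 and in A in 1. In 6 elements all stem pairs were Watson-Crick pairs, and *Tfrc* element 2 had 1 G-U pair.

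The position of the elements separated the genes of storage and export from the receptor. The core of 17 bases lay in *Fth1* on chromosome 19 from 9982738 to 9982754 (plus strand), in the 5′ UTR of 4 of its 5 annotated transcripts with a coding part. In *Ftl1* it lay on chromosome 7 from 45459785 to 45459801 (minus strand), in 2 of 3 such transcripts. In *Slc40a1* it lay on chromosome 1 from 45925471 to 45925487 (minus strand), in 1 of 4. The *Tfrc* elements were all in the 3′ UTR of Tfrc-201 on chromosome 16 (plus strand), from 32631225 to 32631241, from 32631604 to 32631620, from 32631669 to 32631685 and from 32631716 to 32631732. They began 889, 1268, 1333 and 1380 bases into a UTR of 2458 bases, so that all 4 fell within 508 bases. The shorter transcript Tfrc-202, with a 3′ UTR of 235 bases, held none of them.

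**Figure D1:**
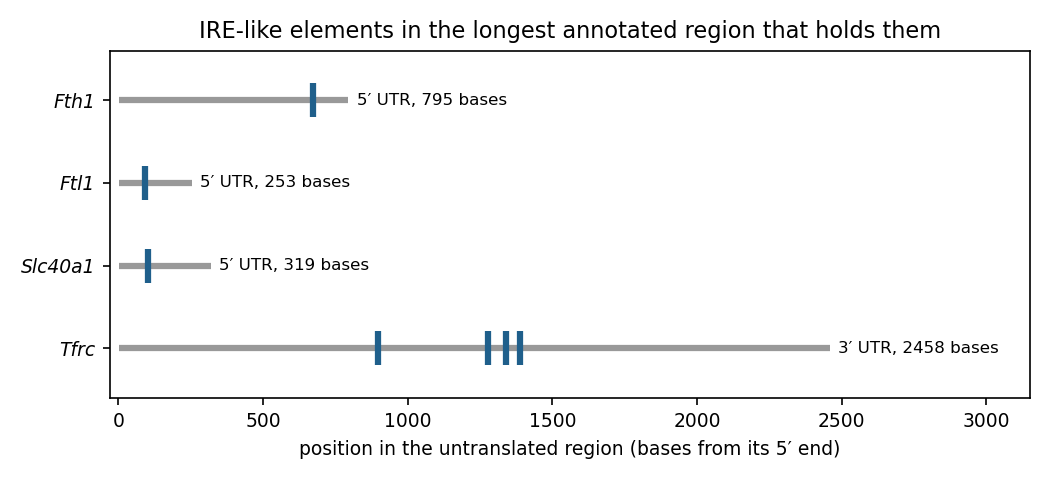
Position of the IRE-like elements (blue bars) along the longest annotated UTR that holds them (grey lines), in bases from the 5′ end of that UTR. *Tfrc* has 4 elements in a 3′ UTR of 2458 bases, while *Fth1*, *Ftl1* and *Slc40a1* have 1 each in 5′ UTRs of 795, 253 and 319 bases.

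No match was found in the UTRs of the other 6 genes, *Slc11a2*, *Ireb2*, *Aco1*, *Ncoa4*, *Steap3* and *Slc39a14*. That says only that these letters with this pairing are not in the annotated UTRs. A hairpin whose stem is interrupted within these pairs would be missed, and binding was not tested for any gene. Both iron regulatory proteins are among the 6, as *Aco1* encodes the first, which is also the cytosolic aconitase, and *Ireb2* the second. The 18 genes with a 5′ match, which count *Fth1*, *Ftl1* and *Slc40a1*, also included *Alas2*, the erythroid enzyme that starts haem synthesis.

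All 10 genes were above the median gene, which had 3.76 log2 CPM, and their own median was 5.60. Levels of different genes are compared per length below, as log2 CPM per kilobase of merged exons, on which scale the median gene had 1.79 and the 10 genes 2.81. On that scale 8 of the 10 were above the median gene, and *Slc39a14* and *Slc40a1* were below it. From high to low the order was *Fth1*, *Ftl1*, *Steap3*, *Tfrc*, *Aco1*, *Ireb2*, *Ncoa4*, *Slc11a2*, *Slc39a14* and *Slc40a1*. Without a spread between libraries it cannot be said which neighbours in this order differ.

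**Figure D2:**
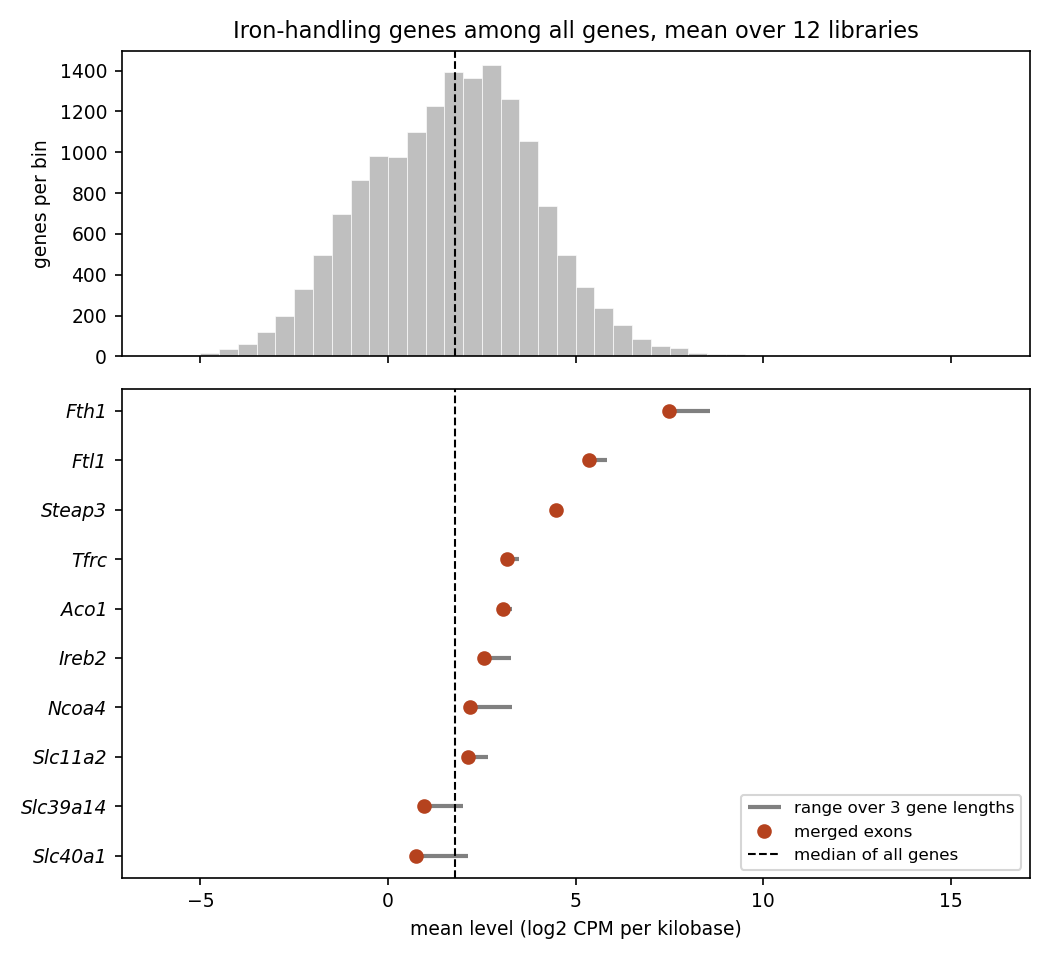
The upper panel counts all 15824 genes with an annotated length by mean level (log2 CPM per kilobase, bins of 0.5), and the lower panel places the 10 iron genes on the same axis (points, merged exons as length; grey bars, range over 3 definitions of length, not an error of measurement). *Fth1* at 7.49 stands highest, and *Slc39a14* and *Slc40a1* lie left of the dashed median of all genes at 1.79.

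The storage genes led the list. *Fth1* (ENSMUSG00000024661, chromosome 19 from 9980598 to 9985098), the chain of ferritin that oxidises iron as it enters, had 9.28 log2 CPM (623 CPM) and ranked 154 of all genes. Per kilobase it stood at 7.49, above 99.3% of genes. *Ftl1* (ENSMUSG00000050708, chromosome 7 from 45457944 to 45459884), the chain that helps the iron core to form, had 5.78 log2 CPM (54.9 CPM). Per kilobase it stood at 5.36, above 95.4% of genes, and *Fth1* was 2.13 higher on this log2 scale, or 2.76 higher with protein-coding transcripts as length. The value of *Ftl1* is uncertain, because 80.9% of the 50-base words in its transcripts with a coding part also occur in annotated transcripts of 17 other genes, 8 of them pseudogenes. How reads that align to several places were counted is not given in the sources used here. Of the 17 genes, *Ftl2-ps*, at 3.30 log2 CPM, and *Gm15590*, at -0.71 log2 CPM, had a row. The exons of *Ftl1* also overlap *Gm10252* on the opposite strand over 355 bases, and the strand setting of the count is not given either. *Gm10252* is among the 17 genes, and words in that overlap are the same stretch of genome, not a copy. The share of words with a copy elsewhere may thus be lower than 80.9%. For *Fth1* the share of shared words was 3.59%. *Ncoa4* (ENSMUSG00000056234, chromosome 14 from 32159865 to 32179855), the receptor that carries ferritin to the lysosome for iron release, had 5.42 log2 CPM (42.8 CPM) and 2.19 per kilobase. With the longest transcript or the protein-coding transcripts as length it had 3.18 or 3.30 per kilobase, the latter the fifth highest of the 10. It shared 37.3% of its words with 1 pseudogene, *Gm6768*.

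Genes of uptake were spread over the range, from *Steap3*, next after the ferritins per kilobase, to *Slc39a14*, below the median gene. *Tfrc* (ENSMUSG00000022797, chromosome 16 from 32608920 to 32632794) had 5.79 log2 CPM (55.3 CPM), above 79.7% of genes. Per kilobase it was at 3.16, above 74.2% of genes, which is 4.33 below *Fth1* and 2.20 below *Ftl1* on the log2 scale. With protein-coding transcripts as length it was 5.21 below *Fth1*. None of its 50-base words occurred in another gene. *Steap3* (ENSMUSG00000026389, chromosome 1 from 120190757 to 120272705), the reductase that turns ferric into ferrous iron in the endosome, had 128 CPM, above 92.0% of genes. Its level per kilobase was 4.48, 1.32 above that of *Tfrc*. *Slc11a2* (ENSMUSG00000023030, chromosome 15 from 100387898 to 100425072), the transporter DMT1 that moves ferrous iron out of the endosome, had 4.80 log2 CPM (27.8 CPM). At 2.13 per kilobase it was 1.03 below *Tfrc*. Its exons overlap *Gm5475* on the opposite strand over 402 bases. In other genes, *Gm5475* among them, 4.32% of its words occur, so part of this share is the same stretch of genome. By the mean level of their mRNA per kilobase, the 3 genes of the transferrin route were thus ordered reductase, receptor and transporter. Without a spread between libraries it is not known whether these levels differ. *Slc39a14* (ENSMUSG00000022094, chromosome 14 from 70303469 to 70351425), the transporter ZIP14 that takes up iron not bound to transferrin, had 4.36 log2 CPM (20.6 CPM). At 0.96 per kilobase it was above 36.7% of genes, and with the longest transcript as length it had 2.01.

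Export stood lowest. *Slc40a1* (ENSMUSG00000025993, chromosome 1 from 45908068 to 45926523) had 3.92 log2 CPM (15.2 CPM), which was above 52.1% of genes. Per kilobase of merged exons it had 0.75 and was above 33.7% of genes, 2.41 below *Tfrc* on the log2 scale. Its length weighs on this value, since its merged exons span 9000 bases, its longest transcript 3928 and its protein-coding transcripts 3466. With the last as length *Slc40a1* had 2.13 per kilobase and stood above *Slc39a14*, at 1.88. The difference between *Tfrc* and *Slc40a1* then fell from 2.41 to 1.25, with *Tfrc* the higher in each case.

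The order of the mRNAs of the iron regulatory proteins turned with the scale. *Aco1* (ENSMUSG00000028405, chromosome 4 from 40143081 to 40198338) had 5.23 log2 CPM (37.6 CPM), and *Ireb2* (ENSMUSG00000032293, chromosome 9 from 54863789 to 54912530) had 5.80 log2 CPM (55.8 CPM). Per kilobase of merged exons *Aco1* was at 3.06 and *Ireb2* at 2.56, 0.51 apart. With the longest transcript as length they were 0.02 apart, at 3.29 and 3.27. Neither gene shared a 50-base word with another gene.

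Further genes of iron metabolism, 54 in 6 roles, placed the list in its pathway. Of these, 49 had a row, 30 of them above the median gene per kilobase, and their median was 2.19 log2 CPM per kilobase against 2.81 for the 10 genes. For the other 5, *Hephl1*, *Ftmt*, *Hjv*, *Hamp* and *Hamp2*, levels were not analysed here.

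**Figure D3:**
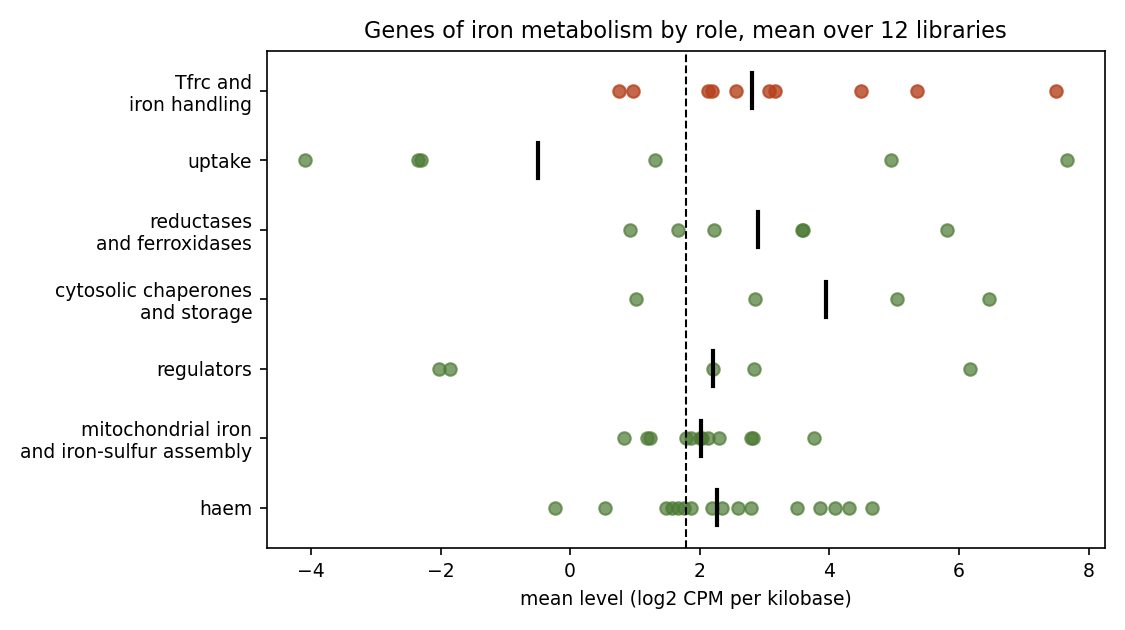
Mean level (log2 CPM per kilobase of merged exons) of each measured gene of iron metabolism by role (green points), with the 10 genes led by *Tfrc* on top (red points). Black bars mark the median of each role and the dashed line the median of all genes at 1.79, and uptake is the role with the widest range, from -4.09 to 7.66.

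Among the 6 other uptake genes, 2 were above the median gene. *Lrp1*, an endocytic receptor that also takes up the haem carrier haemopexin, had 7.66 log2 CPM per kilobase, and *Trf*, which encodes transferrin, the ligand of the transferrin receptor, had 4.94. *Tfr2*, the second transferrin receptor, had 1.31 per kilobase against 3.16 for *Tfrc*. The lowest were the endocytic receptor *Lrp2*, at -4.09, and the ferritin receptor *Scara5*, at -2.34.

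Reductases and ferroxidases numbered 6 with a row, 4 of them above the median gene. *Steap4*, at 5.81 log2 CPM per kilobase, was above its relative *Steap3* at 4.48, while *Steap2* had 3.59 and *Steap1* had 2.22. The ferroxidase *Heph*, which oxidises exported iron so that transferrin can bind it, had 3.58, and the related ceruloplasmin gene *Cp* had 1.66. The duodenal reductase *Cybrd1* was lowest, at 0.92.

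Of the 4 cytosolic chaperone genes, 3 were above the median gene. *Pcbp1* and *Pcbp2*, whose proteins hand iron to ferritin, had 6.47 and 5.05 log2 CPM per kilobase, and *Glrx3* and *Bola2*, which act together in handing on iron-sulfur clusters, had 2.85 and 1.02. Of the 5 regulators, 3 were above it. *Epas1*, an oxygen-regulated transcription factor, had 6.17, and *Hfe*, a partner of the transferrin receptor, had 2.84. *Fbxl5*, which marks the product of *Ireb2* for degradation when iron is plentiful, had 2.20, and *Tmprss6* and *Bmp6*, regulators of hepcidin in the liver, had -2.02 and -1.85.

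Mitochondrial genes of iron import and iron-sulfur assembly lay close together, from 0.84 for *Isca1* to 3.76 for the scaffold *Iscu*, with 8 of 12 above the median gene. *Hscb*, a cochaperone of the scaffold, had 2.82. Of the 16 haem genes, 10 were above the median gene. The haem transporter *Slc48a1* and the haem oxygenase *Hmox2* led, at 4.65 and 4.30 log2 CPM per kilobase. *Flvcr2* had -0.23 and *Alas2*, which red cell precursors use, had 0.54.

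The cells in the libraries bear on all of these values, since a level in bulk RNA does not tell fewer cells of a type from less RNA per cell. All 8 markers of corneal endothelium were above the median gene, at 9.15 to 12.79 log2 CPM, and their values summed to 21218 CPM. Stromal markers were also high. Of 5, 4 had a row, *Kera*, *Lum*, *Dcn* and *Col1a1*, at 8.42 to 11.90 log2 CPM with a sum of 8325 CPM. Such sums depend on the number and the length of the genes in a list. Per kilobase the median was 8.21 log2 CPM for the stromal markers and 8.04 for the endothelial markers. The sums of the other lists were 51.3 CPM for corneal epithelium, 36.3 for leukocytes, 18.5 for pigment cells, 85.7 for vessels and 5.74 for lens. Most of the vessel sum was *Kdr*, at 6.36 log2 CPM, while *Pecam1* and *Cdh5* had 0.92 and 0.71. The epithelial and leukocyte sums also rested mostly on 1 gene each, at 34.8 and 19.8 CPM. Red cell precursors express *Tfrc* strongly, and the red cell marker *Alas2* had 1.80 log2 CPM, below the median gene. Of the 7 red cell markers, 5, the haemoglobin genes and *Slc4a1*, had no row under their symbols and were not analysed here. The part of stromal cells in the level of any iron gene was not tested.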

How the data were processed

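RNAseq was performed by the authors on corneal endothelium from 12 libraries, 3 for each of 4 groups of genotype and sex. Per the study's methods and the submitters' processing notes, the authors used HISAT2 for alignment to GRCm38/mm10, scaled the counts by TMM to CPM and ran limma with voom weights. Versions, the counter, strand setting and annotation release are not given in the sources used here. The authors deposited 3 tables with the same 15838 genes, and their mean expression, in log2 CPM over all libraries, was identical in the 3. The other value columns hold the authors' own log2 fold changes, moderated t, p-values and log odds for genotype, sex and interaction, and were not used. Depth per library is unknown here, so no test, interval or detection limit was computed.

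Level per kilobase is the deposited log2 mean minus log2 of the length in kilobases, from GENCODE M21 (GRCm38), which held 15824 of the genes. Words of 50 bases, the read length, were matched exactly on both strands. The element search was tested on simulated sequence. Python 3.11.15, pandas 2.3.3, numpy 2.4.6 and matplotlib 3.10.9 were used. Named genes are the 10 members, the 2 highest and 2 lowest per kilobase of each other role, and the markers; *Tfr2*, *Steap1*, *Heph*, *Fbxl5* and the overlapping or copied genes were named after their values were seen. Some genes under this rule are not reported here. Members and lists were chosen with earlier results of these data known.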

Additional observations from a re-analysis of the deposited data

How the results depend on the processing

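Lengths, background and element definition were varied as planned. The median of the 10 genes, 2.81 log2 CPM per kilobase of merged exons, was 3.28 with the longest transcript as length and 3.30 with protein-coding transcripts as length. The single genes moved by 0 to 1.38. The move could only be towards higher levels, since neither of these lengths can exceed that of the merged exons. The median of all genes is not given for these lengths, so the place of the 10 genes among all genes was not compared on them. The longest transcript kept all 10 in the same order, and protein-coding transcripts kept 5 in place. The median percentile, 77.0, was 74.7 among the 14407 genes of at least 1 CPM and 67.9 on the scale per kilobase. Elements were found in 4 of the 10 genes and in 0.833% of all genes, which is a description and no test of the list. With Watson-Crick pairs only, elements were found in 4 (0.139% of all genes), and with no C required before the stem in 4 (3.13%). With the longest transcript only, they were found in 2, *Ftl1* and *Tfrc* (0.648%). The longest transcripts of *Fth1*, *Slc40a1*, *Ncoa4* and *Slc39a14* have no annotated coding part and were not searched. Genes of this kind still count in the totals of that setting. No paired analysis was possible because the result comes from no test and the columns carry no replicates, and for the same reason leaving out each replicate was not run. Without depth per library, the precision of low levels is unknown here.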
